A study of Mus musculus with 21 samples.

Results

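The adult globin genes of the mouse were described here in *Ebf1*-deficient lymphoid progenitor (LP) cells, as 4 genes of 55421 in the QuantSeq table. They are *Hbb-bt* and *Hbb-bs*, which encode adult beta chains, and *Hba-a1* and *Hba-a2*, which encode adult alpha chains. They were taken by their symbols, and were selected on their values in this same table, so their levels and their differences between conditions are given as a description with no test. *Hbb-bt* was the 1 member with any reads. The other 3 members were listed at 0 in every library.

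Hemoglobin carries oxygen in red cells as a tetramer of alpha-type and beta-type chains around heme. The genes of each type lie in a cluster in the order in which they are used during development, and far upstream enhancers bound by GATA1, TAL1, LMO2 and LDB1 drive them in erythroid cells. Bcl11a, Sox6 and Zbtb7a are known as silencers of embryonic or fetal globin genes, and Cbfa2t3 (ETO2) is known as a corepressor within the GATA1 and TAL1 complexes of erythroid progenitors. Lymphoid progenitors are not known as a site of hemoglobin production.

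The cells were an LP line of C57BL6/J background from mice lacking *Ebf1*, a B-lineage transcription factor, grown on OP9 stromal cells with SCF, IL-7 and Flt3L and without Notch ligand. All 5 conditions carried a Cas9-GFP retrovirus, and each received a retroviral sgRNA vector with an hNGFR marker: sgControl (against luciferase), sgLmo2, sgZbtb1, sgCbfa2t2 or sgCbfa2t3, from pooled vectors with 2 sgRNAs per gene. Cells positive for GFP and hNGFR were sorted 5 days after transduction, so each condition was a pool of edited cells and not a clone, and all the libraries used here came from a cell line. Each condition had 3 libraries, described in the study as independent biological replicates, and Zbtb1 and Cbfa2t3 were also mapped by ChIP-seq in the unedited line, with 2 replicates each and 1 peak list per factor. Values are CPM, the reads of a gene scaled to the same total in every library. QuantSeq reads come from the 3′ end of each transcript, so a value was not divided by gene length. Recovered totals ran from 1705417 to 2095448 reads per library, and 3 reads, used as the floor, stood for 1.43 to 1.76 CPM. Intervals and floors cover counting error only.

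The labels were checked on the targeted genes. *Zbtb1* mRNA was higher in the sgZbtb1 libraries (105.6 ± 9.91 CPM, SD, n = 3) than in sgControl (61.7 ± 5.51), with an adjusted p of 0.00102 in limma, and *Cbfa2t3* was higher in sgCbfa2t3 (349.8 ± 12.9) than in sgControl (190.2 ± 18.7), with an adjusted p of 1.668e-07. *Ebf1* itself had reads in all 15 libraries, at 336.3 ± 30.5 CPM in sgControl and 209.4 to 365.9 CPM over all. Whether these 3′ reads lie outside the deleted part is not given in the sources used here, so they do not check that label. *Lmo2* did not pass the test in sgLmo2 (adjusted p = 0.957), nor did *Cbfa2t2* in sgCbfa2t2 (adjusted p = 0.412). These 3′ reads do not report on a small edit in a coding exon, so conditions are named below by the label of their libraries. Of 11 lymphoid progenitor markers 9 had a mean above 1 CPM, with a summed level of 1215.8 to 1652.2 CPM, whereas *Cd79a* was listed at 0.

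The promoters of the members are shown to set the detected beta gene beside the members listed at 0. Each line gives the 250 bases before the RefSeq start in GRCm38.p6, 5′ to 3′ on the gene's strand. Capitals mark matches on either strand to the motif CACCC, the motif CCAAT, the motif TATAA and the motif GATAA, and adjoining or overlapping matches run together. The windows lie at chr7:103813924-103814173 for *Hbb-bt*, chr7:103827929-103828178 for *Hbb-bs*, both on the minus strand, and chr11:32283422-32283671 for *Hba-a1* on the plus strand.
Hbb-bt: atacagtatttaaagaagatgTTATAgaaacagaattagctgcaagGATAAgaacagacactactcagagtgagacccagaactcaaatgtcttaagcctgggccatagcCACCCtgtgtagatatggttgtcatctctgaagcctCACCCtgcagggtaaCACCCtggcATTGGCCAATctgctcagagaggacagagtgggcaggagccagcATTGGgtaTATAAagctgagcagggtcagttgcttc
Hbb-bs: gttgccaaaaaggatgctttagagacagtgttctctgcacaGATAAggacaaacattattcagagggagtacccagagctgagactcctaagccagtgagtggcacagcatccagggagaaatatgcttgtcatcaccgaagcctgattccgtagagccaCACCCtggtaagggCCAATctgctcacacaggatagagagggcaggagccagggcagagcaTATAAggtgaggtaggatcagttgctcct
Hba-a1: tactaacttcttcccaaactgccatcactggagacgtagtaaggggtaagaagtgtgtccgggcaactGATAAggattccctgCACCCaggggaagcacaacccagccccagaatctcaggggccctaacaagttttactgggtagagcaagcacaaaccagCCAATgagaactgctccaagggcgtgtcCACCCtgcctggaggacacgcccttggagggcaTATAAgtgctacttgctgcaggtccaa
*Hba-a2* is not shown, since its window shared a run of 247 bases with that of *Hba-a1*. All 4 members held at least 1 match to each of the 4 motifs, and 0.968% of 32851 promoters of the same length did so. Such motifs are known from globin promoters, and the alpha windows are near copies, so this share is no test of enrichment. Singly, CACCC was held by 52% of promoters, CCAAT by 33.9%, TATAA by 22.8% and GATAA by 22.6%. *Hbb-bt* held 3 matches to CACCC, 3 to CCAAT and 2 to TATAA, against 1 of each in *Hbb-bs*. The longest exact run shared by the beta promoters, with no gap allowed, was 14 bases, and their identity in a gapped alignment was not computed. A match here is a description of letters and not of a bound site.

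*Hbb-bt* (ENSMUSG00000073940) lies on chromosome 7 at 103812524 to 103813996 on the minus strand (GENCODE vM21, mm10), with 3 exons and a coding length of 444 bases. It was detected in all 15 libraries, at 71.2 to 277.2 CPM with a mean of 146.3 CPM, which placed it at rank 1287 of 55421 genes. It had 4106 reads over all libraries, and these were 100% of the reads of the adult globin genes.

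In the sgControl libraries *Hbb-bt* was at 148.1, 127.9 and 113.8 CPM, from 255, 221 and 194 reads (mean 129.9 ± 17.3, SD, n = 3). In the sgLmo2 libraries it was at 113.1, 74.8 and 71.2 CPM (86.4 ± 23.2), and in the sgZbtb1 libraries at 167.6, 117.1 and 112 CPM (132.2 ± 30.7). The sgZbtb1 libraries overlapped with sgControl, and the highest sgLmo2 library was just below the lowest sgControl library. The sgCbfa2t2 libraries were at 180.9, 152.7 and 162.8 CPM (165.5 ± 14.3). The sgCbfa2t3 libraries were at 277.2, 190.7 and 183.9 CPM (217.3 ± 52). All libraries of both sets were above every sgControl library.

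**Figure D1:**
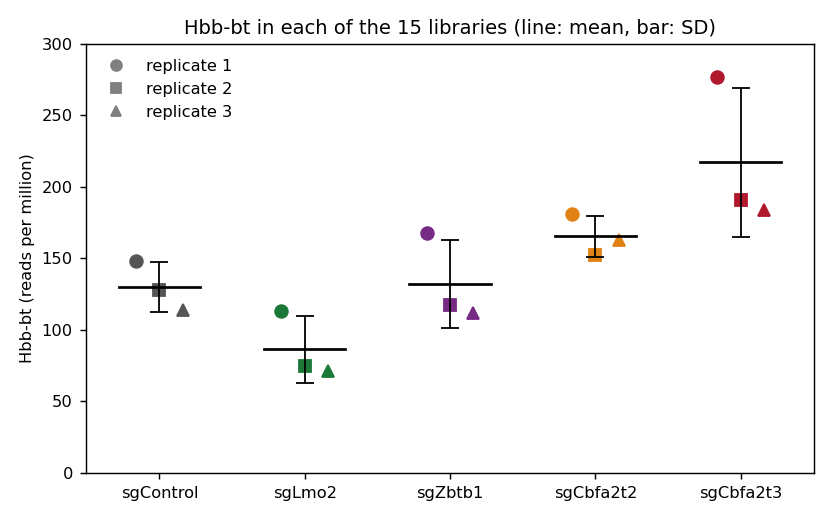
Each point is the level of Hbb-bt in 1 of the 15 libraries in CPM, by condition, with the shape giving the replicate number; the line is the mean of 3 libraries and the bar its SD. The sgCbfa2t3 libraries run from 183.9 to 277.2 and the sgLmo2 libraries from 71.2 to 113.1, against 113.8 to 148.1 in sgControl.

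By mean, the order from low to high was sgLmo2, sgControl, sgZbtb1, sgCbfa2t2 and sgCbfa2t3. *Hbb-bt* in sgControl and sgZbtb1 did not differ beyond the spread of their libraries, and the ranges of sgZbtb1 and sgCbfa2t2 overlapped as well. The ranges of sgLmo2 and sgControl, and of sgCbfa2t2 and sgCbfa2t3, met without overlap: the gap was from 113.1 to 113.8 CPM in the first pair and from 180.9 to 183.9 CPM in the second. The lack of overlap is common in this table. Of 11554 genes with a mean above 1 CPM, 4.97% had all sgLmo2 libraries below all sgControl libraries, 6.88% had all sgCbfa2t2 libraries above them, and 6.70% had all sgCbfa2t3 libraries above them. Since *Hbb-bt* was chosen with these values known, nothing further is read from its place among them.

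The mean of *Hbb-bt* was 1.67 times that of sgControl in sgCbfa2t3, 1.27 times in sgCbfa2t2, 1.02 times in sgZbtb1 and 0.665 times in sgLmo2. On the log2(CPM + 1) scale of the limma fit the difference from sgControl was 0.72 in sgCbfa2t3, 0.35 in sgCbfa2t2, 0.0095 in sgZbtb1 and -0.61 in sgLmo2, each with a standard error of 0.144. The 4 comparisons share the same 3 sgControl libraries. With any 1 of the 6 libraries left out, the log2 difference stayed between 0.53 and 0.83 in sgCbfa2t3, between 0.26 and 0.45 in sgCbfa2t2, and between -0.82 and -0.49 in sgLmo2. In sgZbtb1 it ran from -0.17 to 0.12, on both sides of 0. In bulk libraries fewer cells with a transcript and less of it per cell cannot be told apart.

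The summed lymphoid progenitor markers also moved between conditions. Their sum was 1541.4 ± 10.3 CPM in sgControl, 1628.8 ± 40.4 in sgLmo2, 1452.4 ± 12 in sgCbfa2t2 and 1363 ± 78.1 in sgCbfa2t3 (SD, n = 3). By mean the sum was thus above sgControl in sgLmo2 and below it in sgCbfa2t2 and sgCbfa2t3, opposite to *Hbb-bt*. In sgZbtb1, where *Hbb-bt* was near its control level, the sum was lowest, at 1303.2 ± 76.8 CPM. *Ly6d*, a surface marker of B-lineage-biased lymphoid progenitors, was at 158.2 ± 26.1 CPM in sgControl, 200.2 ± 21.9 in sgLmo2, 97.1 ± 3.54 in sgCbfa2t2, 57.9 ± 8.52 in sgCbfa2t3 and 29.4 ± 6.75 in sgZbtb1 (SD, n = 3). Its adjusted p in limma was 0.849 in sgLmo2, 0.0186 in sgCbfa2t2, 6.823e-10 in sgCbfa2t3 and 3.19e-20 in sgZbtb1. Of the 9 markers tested, limma called 3 in sgZbtb1, all lower, where 4.79% of all 11554 genes were called. These were *Ly6d*, *Kit*, the receptor of SCF (adjusted p = 0.0205), and *Ptprc*, which encodes CD45 (adjusted p = 0.0393). *Ly6d* was the 1 called in sgCbfa2t2 (0.147% of all genes called) and in sgCbfa2t3 (0.537%). None was called in sgLmo2 by limma (0.0173%), where 3 of the 9 and 653 of all genes had an unadjusted p under 0.05. *Ptprc* (431.2 CPM), *Ikzf1* (419.8 CPM) and *Flt3* (232.5 CPM), the receptor of Flt3L, had the highest means of the list. The fitted differences did not all have the same sign. *Dntt*, which encodes the terminal transferase of lymphoid progenitors, ran in the direction of *Hbb-bt* in sgLmo2 and sgCbfa2t3. It was at 78.2 ± 6.83 CPM in sgControl, 55.8 ± 7.99 in sgLmo2 and 115.6 ± 18.1 in sgCbfa2t3 (SD, n = 3), without passing the test (adjusted p = 0.713 and 0.102 in limma). *Dntt* was at 94.2 ± 23 in sgZbtb1 and 88.5 ± 19.2 in sgCbfa2t2. Its Pearson r with *Hbb-bt* over the 15 libraries was 0.631, and -0.34 with the condition means removed. The part of these markers in the differences of *Hbb-bt* was not tested.

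**Figure D2:**
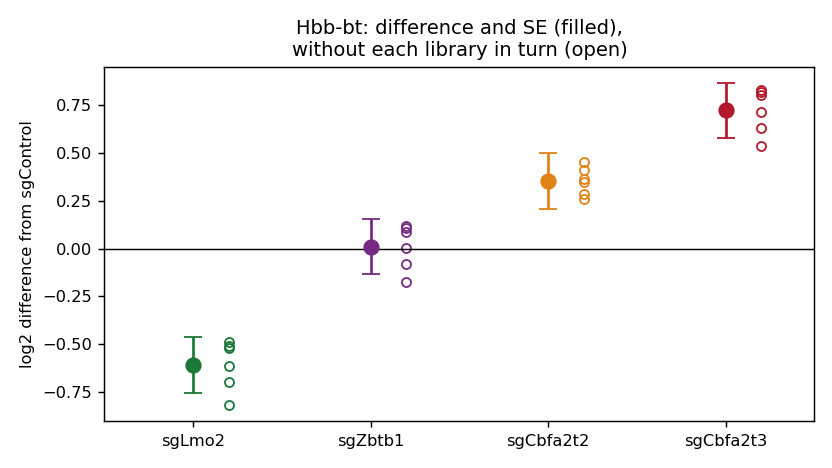
The vertical axis is the log2 difference of Hbb-bt from sgControl for each sgRNA. Filled points are the fitted difference with its standard error, and open points are the 6 values with 1 library left out, from -0.82 to -0.49 in sgLmo2 and from 0.53 to 0.83 in sgCbfa2t3.

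Within each condition *Hbb-bt* was highest in the library numbered 1. This held in all 5 conditions, as it did for 72 of 11554 genes (0.623%). The mean deviation from the condition mean was 0.30 on the log2 scale in the libraries numbered 1, -0.12 in those numbered 2 and -0.175 in those numbered 3. The labels do not say what a number stands for. The spread between libraries was larger than counting gives: the coefficient of variation was 8.65% in sgCbfa2t2, 13.3% in sgControl, 23.2% in sgZbtb1, 23.9% in sgCbfa2t3 and 26.9% in sgLmo2, where the reads alone would give 5.04% to 7.88%. Over the 15 libraries the level of *Hbb-bt* had a Pearson r of -0.155 with the total reads and -0.588 with the number of genes detected, and the part of either in its differences was not tested.

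*Hbb-bs* (ENSMUSG00000052305), the other adult beta gene, was at 0 in all 15 libraries. It lies on chromosome 7 at 103826534 to 103828096. Its coding sequence differs from that of *Hbb-bt* by 1 of 444 bases, and the transcripts share a run of 430 bases. That run ends 160 bases before the 3′ end in *Hbb-bt*. Of the 226 windows of 75 bases, the read length, in the last 300 bases of *Hbb-bt*, 29.2% were also in *Hbb-bs*, and in the last 200 bases none of 126 was (0%). Reads of the full length from the last 200 bases of the beta transcripts can therefore be assigned to 1 gene or the other. The sum of the beta genes is equal to *Hbb-bt* alone in every library. With 0 of 4106 adult globin reads, the exact 95% interval for the share of *Hbb-bs* reached 0.0898%, and 3 reads as the floor gave 0.0731%. These limits hold only for reads that map to 1 place, since *Hbb-bs* also shared some of its windows (29.6%) with *Hbb-bt*. In single libraries, with 130 to 517 reads, the interval reached 0.711% to 2.8%, and the same floor allowed 0.58% to 2.31%.

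*Hba-a1* (ENSMUSG00000069919) and *Hba-a2* (ENSMUSG00000069917) lie on chromosome 11, at 32283511 to 32284465 and at 32296489 to 32297298, both on the plus strand. Both were listed at 0 in all 15 libraries, so that the alpha sum was 0 and no fold change can be given. Their coding sequences differ by 1 of 429 bases. Of the windows of 75 bases in the last 300 bases of *Hba-a1*, 66.8% were also in *Hba-a2*, and 40.5% of those in the last 200 bases. How reads that map to more than 1 place were counted is not given in the sources used here. In the whole table, 68.4% of 1577 protein-coding genes that, like the adult alpha and beta genes, shared some such windows with another gene were at 0. The share at 0 was 36.5% of 19283 genes with no shared window and 88% of 807 genes with all windows shared. The alpha genes also had windows of their own, and no read was counted in them. The ratio of alpha to beta reads is thus bounded only for reads that map to 1 place.

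The other globin genes were at or near the floor. Of 11, 6 had no read in any library, among them *Hba-x*, the embryonic alpha-type gene. *Hbb-y*, an embryonic beta-type gene, had 32 reads in all, in 11 of 15 libraries. Its highest value was 5.71 CPM, from 10 reads in 1 sgCbfa2t3 library, and the other sgCbfa2t3 libraries held 1 and 2 reads. *Hbb-y* had 0, 2 and 2 reads in sgControl and 5, 2 and 3 reads in sgZbtb1. It did not pass the test in any comparison, and its log2 difference in sgCbfa2t3 was 0.74. *Hbb-bh1*, a second embryonic beta-type gene, had 7 reads in 5 libraries, none of them sgControl or sgLmo2. *Cygb*, the cytoglobin of connective tissue cells, had 7 reads. At these counts no difference between conditions could be seen.

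Several genes that define red cells were at or near 0 beside *Hbb-bt*. *Alas2*, the erythroid enzyme for the first step of heme synthesis, was listed at 0, as were *Slc4a1* (band 3), *Rhag* and *Kel* of the red cell membrane, and *Car1*. *Gata1* and *Klf1*, the factors that drive the adult beta genes in erythroid cells, had means of 0.189 and 0.588 CPM. Of 23 red cell membrane and enzyme genes 8 were at 0 in every library and 8 had a mean above 1 CPM. The summed level of that list ran from 432.6 to 489.6 CPM in sgControl, from 465.9 to 490.3 CPM in sgLmo2 and from 442.6 to 520.7 CPM in sgCbfa2t3, with the other conditions between 472.4 and 517.3 CPM, so the ranges of the 3 named conditions overlapped. *Prdx2*, a peroxidase abundant in red cells, was at 222.6 CPM, *Epb41*, protein 4.1, at 118.5 CPM, and *Slc2a1*, a glucose transporter, at 51.1 CPM. Markers of other cell types were low as well. The 10 OP9 stroma markers summed to 1.47 to 12.2 CPM, the 8 myeloid markers to 3.83 to 30.3 CPM, and the 8 megakaryocyte and mast cell markers to 0 to 5.31 CPM. By condition, the myeloid sum was 7.65 ± 3.74 CPM for sgLmo2, 14.4 ± 7.51 for sgZbtb1, 16.1 ± 0.987 for sgControl, 19.1 ± 2.02 for sgCbfa2t3 and 19.4 ± 9.89 for sgCbfa2t2 (SD, n = 3). By mean the myeloid sum was, like *Hbb-bt*, below sgControl in sgLmo2 and above it in sgCbfa2t3. In sgCbfa2t2 it ran from 11.1 to 30.3 CPM, on both sides of sgControl. The megakaryocyte and mast cell sum was 0 in all sgLmo2 libraries, 0 to 1.17 CPM in sgControl, 0 to 2.95 CPM in sgZbtb1, 0 to 4.83 CPM in sgCbfa2t3 and 0 to 5.31 CPM in sgCbfa2t2, whose mean was the highest (3.37 CPM). The part of these cells in the result was not tested. *Elane*, *S100a8*, *S100a9*, *Pf4* and *Cpa3* were at 0.

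**Figure D3:**
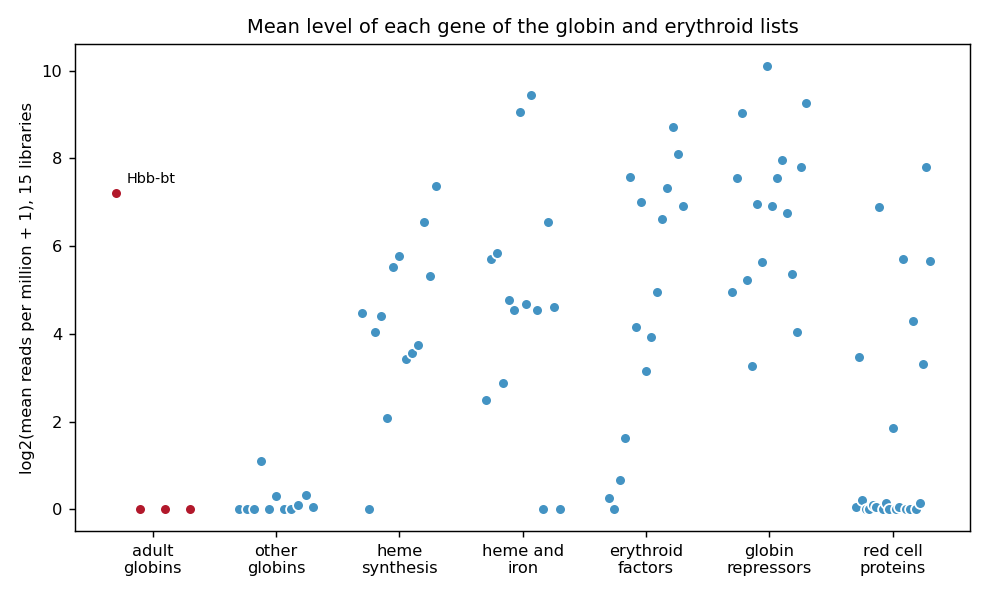
Each point is 1 gene, at the log2 of its mean CPM over the 15 libraries plus 1, for the adult globins and the 6 lists of other globin, heme, iron, erythroid and red cell genes. Hbb-bt is the 1 adult globin above 0, and of 11 other globins 1 has a mean above 1 CPM.

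Heme and iron genes were expressed. Of 13 heme synthesis genes 12 had a mean above 1 CPM. The most abundant were *Tmem14c* (164.9 CPM) and *Slc25a37*, the mitochondrial iron importer mitoferrin (92.8 CPM), and *Cpox*, a late enzyme of the pathway (54 CPM). None of the 12 passed the test in any comparison. At an unadjusted p under 0.05 there was 1 gene in sgLmo2, where 653 of 11554 genes passed that threshold, and 0 in each of the other comparisons. Of 15 heme and iron handling genes 14 were in the table and 12 were tested, and none passed. At an unadjusted p under 0.05 there were 4 of the 12 in sgZbtb1 and 1 in sgCbfa2t3, against 2030 and 1224 of 11554 genes. The list was led by *Tfrc*, the transferrin receptor (692.5 CPM), *Fth1*, ferritin heavy chain (532.9 CPM), and *Ireb2*, an iron-sensing RNA-binding protein (92.7 CPM). *Fth1* was at 588.1 ± 20.4 CPM in sgZbtb1 and 496.1 ± 14.1 in sgControl (SD, n = 3; adjusted p = 0.0806 in limma, and 0.0456 with the replicate number as a block). The other 3 with an unadjusted p under 0.05 in sgZbtb1 were *Blvrb*, *Blvra* and *Hmox1* of heme breakdown, with adjusted p of 0.137, 0.188 and 0.16 in limma.

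Among the regulators of the globin genes, *Sox6*, *Bcl11a* and *Runx1* were lower and *Lyl1* was higher in sgZbtb1, and *Cbfa2t3* was higher in sgCbfa2t3. The 6 lists, without the members, held 93 genes, of which 61 were tested by limma on log2(CPM + 1), two-sided, with Benjamini-Hochberg adjustment over 11554 genes. In sgZbtb1 2 of the 61 were higher and 4 lower (9.84%), where 4.79% of all genes were called. The median log2 difference of the 61 was -0.03, as it was over all genes (-0.03). In sgCbfa2t3 1 was higher, where 0.537% of all genes were called, and that gene was *Cbfa2t3* itself. None was called in sgLmo2 (0.0173% of all genes called) or sgCbfa2t2 (0.147%). At an unadjusted p under 0.05 limma gave 3 of the 61 listed genes in sgLmo2 and 5 in sgCbfa2t2, where 653 and 1105 of all 11554 genes passed that threshold, and edgeR and DESeq2 on the recovered reads also called 0. In sgZbtb1 and sgCbfa2t3 limma gave 13 and 8 of the 61 at that threshold, against 2030 and 1224 of all 11554 genes. The lists were chosen with earlier results of these data known, so nothing is read from these shares. Whether the count differs between conditions was not tested.

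*Sox6*, a silencer of embryonic globin genes, was at 43.6, 43.4 and 56.9 CPM in sgControl and at 15.1, 17.2 and 14.7 CPM in sgZbtb1. The groups were far apart, with a log2 difference of -1.55 ± 0.21 (SE, n = 3; adjusted p = 1.577e-07 in limma). *Sox6* in sgCbfa2t3 was at 37.5, 29.7 and 29.9 CPM, without passing the test (adjusted p = 0.315 in limma).

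*Bcl11a*, a zinc finger silencer of fetal globin genes, was at 38.9, 57.3 and 38.1 CPM in sgControl and at 23.5, 32.5 and 19.1 CPM in sgZbtb1. It fell there by 0.82 ± 0.24 on the log2 scale (SE, n = 3; adjusted p = 0.0264 in limma), and the call was lost without sgControl replicate 2 (adjusted p = 0.21), sgZbtb1 replicate 1 (0.0813) or sgZbtb1 replicate 3 (0.183). In sgLmo2 *Bcl11a* was at 18.7, 26.9 and 17.5 CPM, with a larger fitted difference (-1.05 ± 0.24) that did not pass (adjusted p = 0.11) and did with the replicate number as a block (adjusted p = 0.0176). The fitted difference of *Bcl11a* was -0.42 in sgCbfa2t2 and -0.68 in sgCbfa2t3, and neither passed (adjusted p = 0.601 and 0.237 in limma). All 4 comparisons share the same sgControl libraries.

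*Runx1*, a factor of hematopoietic progenitors, was at 333.9, 323.5 and 302.6 CPM in sgControl and 178.2, 186.5 and 174.8 CPM in sgZbtb1 (log2 difference -0.83 ± 0.098, SE, n = 3; adjusted p = 3.281e-09 in limma). *Lyl1*, a bHLH partner of Lmo2, was higher in sgZbtb1, at 228.2 ± 14 against 159.6 ± 6.63 CPM (SD, n = 3; adjusted p = 0.000943 in limma). *Hemgn*, a nuclear protein of hematopoietic progenitors and erythroblasts, was at 8.28 ± 0.385 CPM in sgZbtb1 and 24.9 ± 5.57 in sgControl (SD, n = 3; adjusted p = 0.000634 in limma). *Prdx2* was higher in sgZbtb1 by 0.33 ± 0.1 on the log2 scale (SE, n = 3; adjusted p = 0.0467 in limma), a call lost with a pseudocount of 0.1 (adjusted p = 0.0515) and without sgControl replicate 1 (0.163), sgControl replicate 2 (0.168), sgZbtb1 replicate 2 (0.193) or sgZbtb1 replicate 3 (0.14). *Hbb-bt* had a log2 difference of 0.0095 in this same comparison, the smallest of its 4.

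The other regulators among the highest means of their lists did not pass the test in any comparison. *Chd4*, a remodeler of the NuRD complex, was at 1099.6 CPM, *Ncor1*, a corepressor, at 608.9 CPM, *Myb*, a progenitor factor, at 519.7 CPM, and *Ikzf1* (Ikaros) at 419.8 CPM. The other members of these lists reached down to 2.07 CPM for *Tal1*, the bHLH partner of Lmo2 in erythroid cells, among those tested, and *Gata2* was at 0 in every library.

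**Figure D4:**
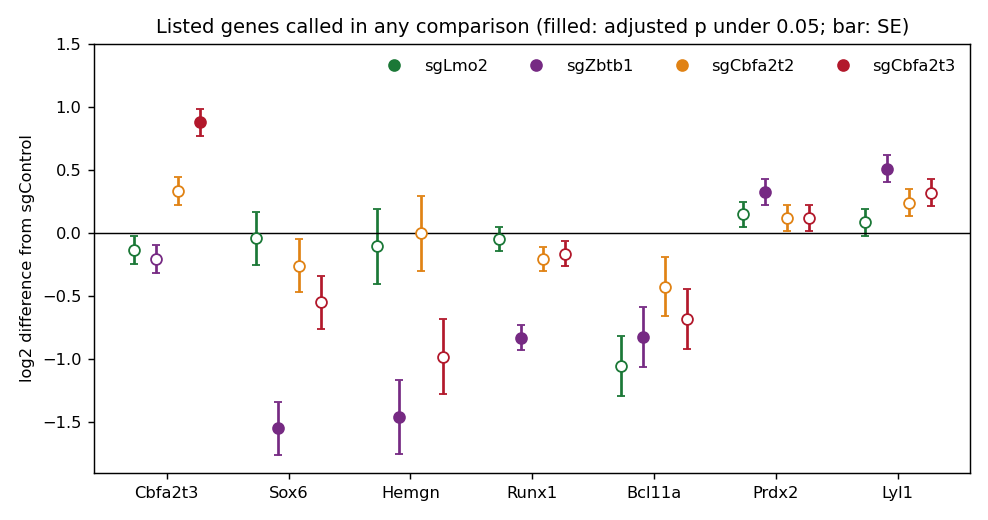
The vertical axis is the log2 difference from sgControl with its standard error for the 7 listed genes called in any comparison, in the 4 sgRNA conditions. Filled points passed an adjusted p of 0.05; 6 of the 7 filled points are sgZbtb1, and Cbfa2t3 is the 1 in sgCbfa2t3.

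The genes whose level followed *Hbb-bt* most closely over the 15 libraries were sought among 7959 protein-coding genes with a mean above 10 CPM, as a description. They were *Alox5ap* (r = 0.812), which encodes the activating protein of 5-lipoxygenase, *Itga4* (0.807), the integrin alpha chain of VLA-4, *Spag7* (0.766), *Eloc* (0.761), which encodes elongin C, and *Cbfa2t3* (0.758). The 15 points share their conditions in groups of 3, and the lowest r over the same genes was -0.852. With the condition means removed, r was 0.552 for *Alox5ap*, 0.64 for *Itga4*, 0.713 for *Spag7*, 0.796 for *Eloc* and 0.251 for *Cbfa2t3*. *Itga4* was at 482.9 ± 20.4 CPM in sgCbfa2t3, 298.6 ± 41 in sgControl and 224.3 ± 34.7 in sgLmo2 (SD, n = 3). It was also at 438.1 ± 12.7 in sgZbtb1, where *Hbb-bt* was near its control level. No red cell gene was among the 5.

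Each globin cluster had 1 ChIP-seq peak within 100 kb, and neither peak lay inside its cluster. Within 100 kb of the beta cluster there was 1 Cbfa2t3 peak and no Zbtb1 peak (0). At the density of each list over the genome, a window of this size would hold 0.537 and 0.521 peaks. The Cbfa2t3 peak lay at chr7:103812085-103812463 in mm10, 61 bases beyond the 3′ end of *Hbb-bt*. Its score was 22.9, rank 5188 of 6077, near the lowest score of that list (20.6) and under its median (33.2). The central 200 bases of the peak are shown because it is the nearest peak to any member, at chr7:103812174-103812373 on the plus strand. It is in lower case throughout, since it held none of the 3 motifs searched in peaks, which follow it. It does hold the letters of the promoter motifs TATAA and, on the other strand, GATAA, which are not marked here.
Cbfa2t3 peak: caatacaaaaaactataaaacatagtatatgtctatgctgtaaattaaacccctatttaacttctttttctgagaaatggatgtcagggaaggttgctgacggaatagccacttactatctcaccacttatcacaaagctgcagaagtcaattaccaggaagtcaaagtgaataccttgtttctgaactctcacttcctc
On both strands, TGTGGT, a core RUNX motif, was held by the same central window of 43.7% of 6070 Cbfa2t3 peaks. The erythroid motif AGATAA was held by 6.44% of these windows. The E-box CAGNTG was held by 83.2%. No match to these says only that their letters are not in this window.

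Within 100 kb of the alpha cluster there was 1 Zbtb1 peak and no Cbfa2t3 peak (0), where the density of each list would give 0.486 and 0.501. The Zbtb1 peak lay at chr11:32267398-32267768, with a score of 62 (rank 1075 of 5898, median 28). It covered the start of *Nprl3*, the gene whose introns hold the known alpha globin enhancers, and lay 15743 bases before *Hba-a1*. *Nprl3* was at 11 CPM, and its log2 difference in sgZbtb1 was 0.076 ± 0.36 (SE, n = 3; adjusted p = 0.949 in limma). *Snrnp25* (95.4 CPM) and *Mpg* (15.6 CPM), further along the same side, did not pass either. Around the beta cluster all 13 neighbouring protein-coding genes were olfactory receptor genes, of which 12 were at 0. *Hbb-bt* was thus the 1 gene of its neighbourhood above 10 CPM. Whether the peaks bear on its level was not tested.

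**Figure D5:**
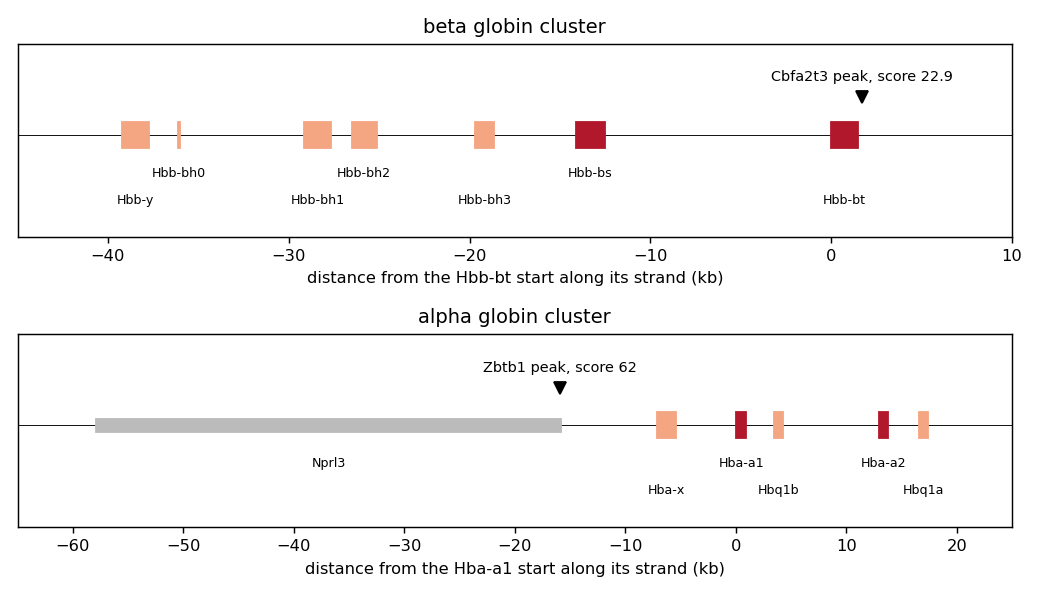
The horizontal axis is the distance in kb from the start of Hbb-bt (top) or Hba-a1 (bottom) along its strand. Dark boxes are the 4 adult globin genes, light boxes the other globin genes and the grey box Nprl3; triangles mark the Cbfa2t3 peak (score 22.9) and the Zbtb1 peak (score 62).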

How the data were processed

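QuantSeq 3′ mRNA libraries from sorted LP cells (5 conditions, 3 libraries each) and ChIP-seq peak lists were used. The authors trimmed reads with fastp, mapped them to mm10 with STAR, and brought each library to a common read total. The authors named these values TPM, but they hold no length term and are CPM as deposited: 99.97% to 99.98% of values were whole reads within a tolerance of 0.1, so reads were recovered. One line (1) without a gene identifier, 1 read per library, was left out. The deposited peak score is from HOMER, after Bowtie 1.1.1 per the labels, on peaks reproducible between 2 replicates. The authors' own means, SDs, p-values and fold changes were not used.

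limma 3.58.1 (R 4.3.3; lmFit, eBayes with trend) was fitted to log2(CPM + 1) of 11554 genes with a mean above 1, over all 15 libraries, condition only. Adjusted p is Benjamini-Hochberg over all genes, called under 0.05. The code was tested on simulated data. edgeR 4.0.16 (quasi-likelihood) and DESeq2 1.42.0 on recovered reads were alternatives (561 and 509 genes called in sgZbtb1, against 554), with another pseudocount, scaling, filters and left-out libraries. Replicate pairs differed beyond counting noise (chi-square per degree of freedom 2.22 to 3.6). Genes of the 6 globin, heme, iron, erythroid and red cell lists were named where called in any comparison or among the 3 highest means of a list. Others were named where among the 5 most like *Hbb-bt*, or targeted. Defining red cell genes, red cell genes with a mean above 1 CPM, *Ebf1*, *Tal1*, cell type markers, *Blvrb*, *Blvra*, *Hmox1* and neighbours were named after their values were seen. Some items are not reported here. Members and lists were chosen with earlier results of these data known.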

Additional observations from a re-analysis of the deposited data

How the results depend on the processing

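The log2 difference of *Hbb-bt* from sgControl kept its direction under all 10 alternatives in sgLmo2, sgCbfa2t2 and sgCbfa2t3. No library of these conditions overlapped with sgControl, so a left-out library or another pseudocount could not turn the sign. The replicate block leaves the fitted difference as it is, so nothing is read from the kept direction. In sgZbtb1, where the difference was near 0, 2 left-out libraries turned its sign. Among listed genes, *Runx1*, *Lyl1*, *Sox6*, *Hemgn* and *Cbfa2t3* stayed called under all 14 alternatives. *Bcl11a* in sgZbtb1 fell short in 4 and *Prdx2* in 6, including the fit on all genes above 0, with adjusted p of 0.0667 and 0.0815. With all genes above 0 tested, the genes called became 330 in sgZbtb1, 0 in sgCbfa2t2 and 24 in sgCbfa2t3. With the 6 libraries alone sgLmo2 had 1. With 1 library left out, the number called ran from 1 to 4 in sgLmo2, 306 to 459 in sgZbtb1, 2 to 26 in sgCbfa2t2 and 26 to 59 in sgCbfa2t3, and listed genes called from 4 to 6 in sgZbtb1; a condition left with 2 libraries shared the spread of the others. The cause was not tested.

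With the replicate block, 14 genes were called in sgLmo2 (1 of them listed, *Bcl11a*) and 36 in sgCbfa2t2, *Fth1* was added to the listed genes called in sgZbtb1 (7 in all), and the standard error of *Hbb-bt* was 0.116. The numbers were not taken as pairs in the main fit. The deviations of same-numbered libraries had a mean r of 0.0279 (-0.0072 to 0.0656), against -0.0139 for libraries of different numbers. Of the 15 libraries 14 correlated best with their own number. What libraries of the same number share was not tested.

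The share of *Hbb-bt* windows found in *Hbb-bs* became 0% in the last 200 bases and 36.3% with windows of 50 bases, and that of *Hba-a1* in *Hba-a2* 40.5% and 80.1%. With a score of at least 30 there were 0 Cbfa2t3 peaks within 100 kb of the beta cluster. No value is given for the alpha sum, which was 0 throughout.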
